A study of Mus musculus with 9 samples.

Results

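The genes of MHC class II antigen presentation are described here in mouse bone marrow (BM)-derived macrophages (Mϕs) treated with IL-4 or IL-6. They are the 8 of 53379 genes in the deposited expression table whose Ensembl identifiers belong to H2-Aa, H2-Ab1, H2-Eb1, H2-DMa, H2-DMb1, H2-Oa, Cd74 and Ciita, and they were chosen by name. BM cells of C57BL/6 mice were grown in 10 ng/ml CSF-1, also called M-CSF, for 3 days. Control Mϕs then stayed in CSF-1 alone for 4 days, IL-4-treated Mϕs received CSF-1 with 10 ng/ml IL-4, and IL-6-treated Mϕs received CSF-1 with 100 ng/ml IL-6. These doses and times are those of the sample labels. The study's methods give another dose of IL-4, and its figure legends other doses and another time. All 3 groups were thus wild-type cells of one inbred strain that carried CSF-1 throughout, and none received interferon-γ. Each group has 3 libraries, and the design names 3 mice without saying which libraries came from which mouse. Stranded mRNA libraries were sequenced, and the values are FPKM, fragment counts scaled by exon length and library size, so that levels of different genes can be compared per length.

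MHC class II molecules show peptides from endosomes to CD4+ T cells. Their α and β chains (H2-Aa with H2-Ab1, and H2-Eb1 as a β chain of the second isotype) assemble in the endoplasmic reticulum around the invariant chain, which Cd74 encodes. In late endosomes proteases trim the invariant chain, and the peptide editor H2-DM (H2-DMa with H2-DMb1 or H2-DMb2) releases its last fragment so that peptides can bind. H2-O (H2-Oa with H2-Ob) holds H2-DM in check and is known mainly from B cells and some dendritic cells. CIITA, the product of Ciita, does not bind DNA itself but is recruited by RFX, CREB and NF-Y factors to the X, X2 and Y boxes of class II promoters. Mϕs of this kind have low class II levels at rest and raise them in response to interferon-γ and, less uniformly, to IL-4.

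The libraries held 29988160 to 39909571 fragments. The tests covered 12824 genes with a mean of at least 0.5 FPKM. Their median log2 fold change was −0.20 between IL-4 and control, −0.00 between IL-6 and control and 0.22 between IL-6 and IL-4, and median-ratio rescaling of the libraries brought these to −0.01, −0.01 and 0.02. The libraries also fell into 2 sets that follow neither treatment nor replicate number. The summed FPKM of 21 intestinal epithelial genes was 40.4 to 61.6 in Control #1, #2, #3 and IL-4 #1, and 0.0139 to 0.175 in IL-4 #2, #3 and all IL-6 libraries. Control and IL-6 libraries never share a set, so for that comparison the set and the treatment cannot be told apart except through the IL-4 libraries. A model with the set as a term takes the set effect from IL-4 #1 against IL-4 #2 and #3 alone. In that model only IL-4 #1 stands for IL-4 in the comparison with control. IL-4 #3 stood apart in a further way: relative to the mean of IL-4 #1 and #2, its values had a median log2 difference of 0.35 over genes with under 2 kb of exon and −0.88 over genes with more than 5 kb.

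Promoter sequences come first here, since the boxes to which CIITA is recruited can be read in them. RefSeq promoter windows (GRCm38.p6, 250 bases before to 50 bases after a start site) matched 5 of the 8 members, H2-Aa, H2-Eb1, H2-DMa, H2-DMb1 and H2-Oa, and the further class II loci H2-DMb2, H2-Ob and H2-Eb2. Bases −140 to −21 from the start are printed for 6 of them, 5′ to 3′ on the strand of the gene. Capitals mark matches, on the strand of the gene, to the RFX part of the X box (AACNNATG), the X2 box (TGACGTCA) and the Y box (ATTGG), letters that were chosen after these sequences had been seen.
H2-Aa (chr17:34287844-34287963, minus strand): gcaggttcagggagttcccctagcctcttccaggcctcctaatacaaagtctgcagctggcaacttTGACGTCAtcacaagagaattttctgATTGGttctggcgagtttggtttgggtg
H2-Eb1 (chr17:34305727-34305846, plus strand): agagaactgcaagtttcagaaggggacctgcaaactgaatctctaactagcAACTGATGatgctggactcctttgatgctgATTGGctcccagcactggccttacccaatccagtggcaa
H2-DMb1 (chr17:34153051-34153170, plus strand): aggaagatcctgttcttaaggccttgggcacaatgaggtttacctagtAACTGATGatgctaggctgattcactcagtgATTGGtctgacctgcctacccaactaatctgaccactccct
H2-DMb2 (chr17:34145109-34145228, plus strand): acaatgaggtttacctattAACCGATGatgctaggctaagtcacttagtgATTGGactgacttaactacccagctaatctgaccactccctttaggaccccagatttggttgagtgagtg
H2-Ob (chr17:34238765-34238884, plus strand): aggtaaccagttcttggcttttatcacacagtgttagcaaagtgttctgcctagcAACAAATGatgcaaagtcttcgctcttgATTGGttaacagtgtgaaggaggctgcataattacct
H2-Oa (chr17:34092239-34092358, plus strand): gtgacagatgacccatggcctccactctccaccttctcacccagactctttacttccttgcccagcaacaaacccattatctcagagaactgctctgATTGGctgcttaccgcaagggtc
In H2-Aa the X2 match began 74 bases before the start and the Y match 26 bases further on. H2-Eb1, H2-DMb1, H2-DMb2 and H2-Ob had the X match and then the Y match 30, 31, 31 and 28 bases apart, and so did H2-Eb2, not printed here, at 30 bases. H2-Oa had the Y match alone in its window, and neither of the 2 windows of H2-DMa held an X or X2 match. Searched on both strands, AACNNATG occurred in 8.86% of all 32851 windows of this length, TGACGTCA in 1.79% and ATTGG in 37.4%, and an X or X2 match 15 to 40 bases before a Y match in 0.310%. H2-Eb1 also held ATTGG on the opposite strand, and different motifs did not overlap in these windows. A match is a description of letters and no evidence of binding in these cells.

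IL-4 raised the genes of the peptide-binding chains more than 10-fold, whereas with IL-6 they stayed within the range of the control libraries or close to it. H2-Aa (ENSMUSG00000036594.14, GENCODE M21 on GRCm38, chromosome 17, 34282744 to 34287823, minus strand) encodes the α chain of I-A. Its values were 70.7, 91.3 and 85.4 FPKM in Control #1 to #3, 1039.9, 825 and 1192 under IL-4, and 76.9, 80.5 and 95.001 under IL-6. Every IL-4 library lay far above every other library, and the IL-6 libraries overlapped the control libraries. The log2 fold change of H2-Aa with IL-4 was 3.62 (standard error, SE, 0.173, limma adjusted p = 6.06e-06), and with IL-6 it was 0.03, with a 95% interval from −0.37 to 0.43 (adjusted p = 0.938). In FPKM the mean with IL-4 was 12.4 times that of control.

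H2-Ab1 (chromosome 17, 34257689 to 34269419) encodes the partner β chain and followed the same order. It had 59.7, 80.5 and 69.7 FPKM in control, 911, 818 and 1564 under IL-4, and 64.2, 72.7 and 81.8 under IL-6. The lowest IL-4 library was thus far above the highest of the other 6. H2-Ab1 rose by 3.92 on the log2 scale with IL-4 (SE 0.248, limma adjusted p = 2.49e-05) and differed by 0.06 between IL-6 and control (95% interval −0.51 to 0.63, adjusted p = 0.909). H2-Eb1 (chromosome 17, 34305867 to 34316674), the β chain of I-E, had 78.8, 112 and 93.5 FPKM in control, 1068, 804 and 1497 under IL-4, and 86.8, 93.7 and 104.9 under IL-6. Again the IL-4 libraries alone were high. With IL-4 H2-Eb1 rose by 3.53 on this scale (SE 0.234, limma adjusted p = 2.99e-05), and its IL-6 value differed from control by 0.02 (95% interval −0.52 to 0.55, adjusted p = 0.976). C57BL/6 mice carry a defective gene for the α chain of I-E, so H2-Eb1 transcripts are known not to yield a surface I-E molecule in this strain. The table lists that gene, H2-Ea-ps, at 0.166 to 0.194 FPKM in the control libraries, at 0.128 in IL-4 #1 and at 0 in the other 5 libraries. This division is that of the 2 sets of libraries and not that of the treatments.

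**Figure D1:**
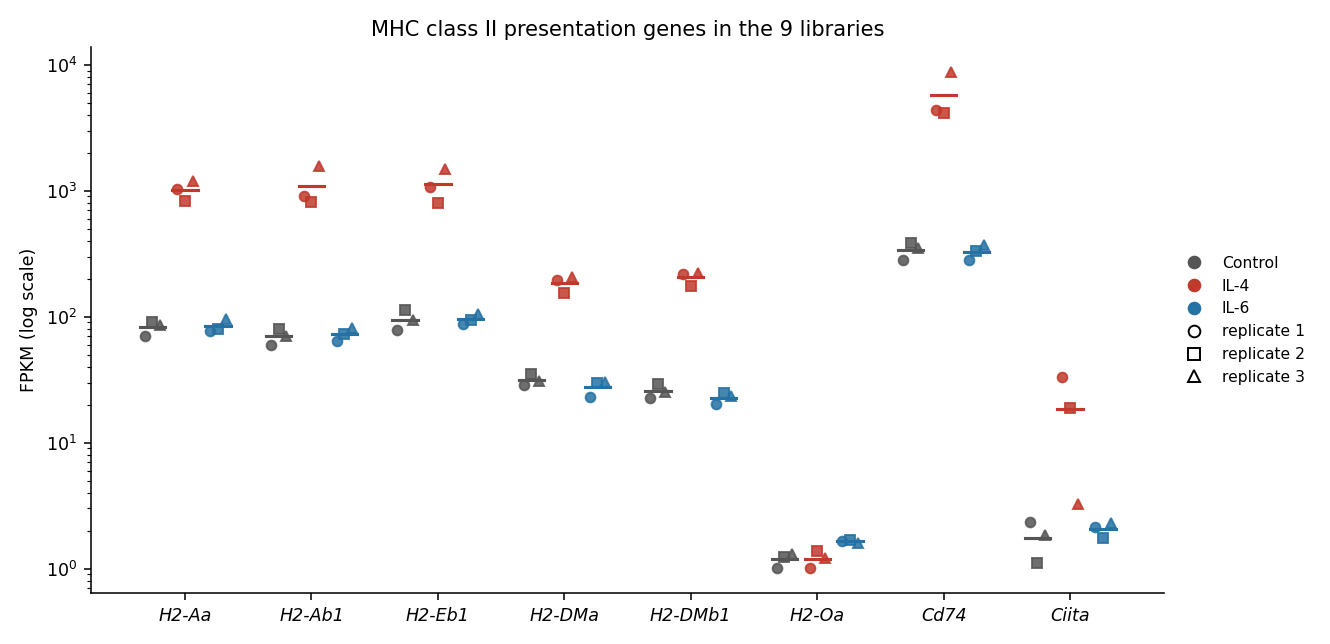
FPKM (log scale) of the 8 class II genes in each of the 9 libraries, colored by group, with the replicate number as the symbol and the group mean as a bar. For 7 genes the 3 IL-4 libraries lie above all control and IL-6 libraries, while for H2-Oa all libraries lie between 1.00 and 1.68 FPKM.

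Cd74 (ENSMUSG00000024610.14, chromosome 18, 60803848 to 60812652), the invariant chain, was the most abundant member in every library and had the largest mean change. It had 281, 382 and 354 FPKM in control, 4402, 4130.4 and 8732 under IL-4, and 284, 330 and 370 under IL-6. IL-4 #3 had about the sum of the other IL-4 libraries, and the control and IL-6 libraries overlapped. Cd74 rose by 4.01 on the log2 scale with IL-4 (SE 0.288, limma adjusted p = 4.68e-05) and differed by −0.04 between IL-6 and control (95% interval −0.70 to 0.62, adjusted p = 0.947). By mean FPKM, Cd74 ranked 97 among 26751 genes above 0 in control Mϕs, 6 among 26571 with IL-4 and 103 among 26230 with IL-6. The 8 genes together took 0.0813% to 0.108% of all fragments in the control libraries, 0.0833% to 0.106% in the IL-6 libraries, and 1.17%, 1.03% and 1.96% in IL-4 #1, #2 and #3. In bulk RNA, fewer cells of a type and less RNA per cell cannot be told apart, so these shares do not say how many Mϕs carried the transcripts.

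The genes of the peptide editor H2-DM rose with IL-4 as well, with smaller fold changes than the chains they act on. H2-DMa (chromosome 17, 34119541 to 34139101) had 28.6, 35.2 and 30.9 FPKM in control, 197, 155 and 206.5 under IL-4, and 22.9, 29.6 and 30.6 under IL-6. All IL-4 libraries were above the rest. H2-DMa rose by 2.55 on the log2 scale with IL-4 (SE 0.165, limma adjusted p = 2.51e-05) and differed by −0.19 between IL-6 and control (95% interval −0.57 to 0.18, adjusted p = 0.575). H2-DMb1 (chromosome 17, 34153072 to 34160230) had 22.8, 29.0 and 25.3 FPKM in control, 218, 175 and 223 under IL-4, and 20.2, 24.7 and 23.4 under IL-6. Control and IL-6 libraries overlapped here too. For H2-DMb1 the rise with IL-4 was 2.99 on that scale (SE 0.148, limma adjusted p = 6.32e-06) and differed by −0.17 between IL-6 and control (95% interval −0.51 to 0.17, adjusted p = 0.579). Of the 50-base stretches in H2-DMb1 transcripts 22.7% also occur in transcripts of H2-DMb2, so reads could be split between these neighbors. With IL-4 H2-DMb1 held 7864 to 13203 fragments a library and H2-DMb2 268 to 304. The part of shared reads in the H2-DMb2 values was not tested. H2-DMb2 itself had 1.93, 3.16 and 2.00 FPKM in control, 5.05, 5.17 and 4.45 under IL-4, and 2.70, 2.97 and 3.24 under IL-6. With IL-4 its log2 fold change was 1.05 (limma adjusted p = 0.0065), a call lost without Control #1 or #3. It was also lost with the library set in the model (1.10), which sets IL-4 #1 alone against control.

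H2-Oa, which encodes the α chain of the H2-DM inhibitor H2-O, was the one member that did not pass the test with IL-4. It lies on chromosome 17 from 34092340 to 34095234, the first of the class II genes in the region, and was near the bottom of the tested range. It had 1.00, 1.24 and 1.30 FPKM in control, 1.00, 1.38 and 1.22 under IL-4, and 1.66, 1.68 and 1.59 under IL-6, from 45 to 76 fragments a library. Control and IL-4 libraries overlapped, and the 3 IL-6 libraries lay above the other 6. H2-Oa differed from control by 0.02 on the log2 scale with IL-4 (95% interval −0.40 to 0.44, limma adjusted p = 0.951), 0.45 with IL-6 (0.03 to 0.87, adjusted p = 0.204) and 0.43 for IL-6 against IL-4 (adjusted p = 0.0992). Once the library set entered the model, IL-6 and control differed by 0.10 (adjusted p = 0.822), with the set effect taken from the IL-4 libraries alone. H2-Ob, its partner β chain, had 1.81, 2.15 and 2.72 FPKM in control, 2.17, 2.58 and 1.52 under IL-4, and 1.35, 1.88 and 1.57 under IL-6. These groups overlapped, and H2-Ob passed in none of the comparisons (limma adjusted p of 0.795 for IL-4 and 0.358 for IL-6). H2-Eb2, another β chain locus, held 3 to 33 fragments a library and was below the filter on low values.

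Ciita, the class II transactivator (ENSMUSG00000022504.9, chromosome 16, 10480059 to 10528418), rose with IL-4 on average but unevenly between the libraries. It had 2.33, 1.12 and 1.84 FPKM in control, 32.9, 18.9 and 3.28 under IL-4, and 2.14, 1.76 and 2.32 under IL-6. All 3 IL-4 libraries were above the other 6, and IL-4 #3, from 687 fragments, was only a little above Control #1. Ciita rose by 2.84 on the log2 scale with IL-4 (SE 0.735, 95% interval 1.15 to 4.53, limma adjusted p = 0.0242) and 0.27 with IL-6 (−1.42 to 1.96, adjusted p = 0.870). The call with IL-4 was lost when only control and IL-4 libraries were fitted (adjusted p = 0.0785). It was also lost without Control #1 (3.06, adjusted p = 0.0527), Control #2 (2.56, 0.0825), Control #3 (2.90, 0.0674) or IL-4 #2 (2.56, 0.0761). Without IL-4 #3 it was 3.80 (adjusted p = 8.99e-05).

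The library with the lowest Ciita among the IL-4-treated Mϕs thus had the highest Cd74, H2-Ab1 and H2-Eb1. On the log2 scale, Ciita in IL-4 #3 differed by −2.89 from the mean of IL-4 #1 and #2, where the 4094 genes with more than 5 kb of exon had a median of −0.88 and quartiles of −1.32 and −0.40. For Cd74 the same difference was 1.03, and for H2-Ab1 0.86, where the 3001 genes under 2 kb had a median of 0.35 and quartiles of −0.59 and 0.98. The exon lengths behind the table are 5254 bases for Ciita and 1184 to 1874 bases for the other members. When the trend of each library on exon length was taken out, an alternative chosen after seeing the data, Ciita rose by 3.07 with IL-4 (limma adjusted p = 0.00541). The share of gene length in the Ciita value of IL-4 #3 was not tested beyond this. Over the 9 libraries, which share treatment and depth, Pearson's r of log2 Ciita with the mean of the standardized H2-Aa, H2-Ab1, H2-Eb1 and Cd74 was 0.763. For H2-DMa and H2-DMb1, which are likewise outside that mean, it was 0.994 and 0.995.

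**Figure D2:**
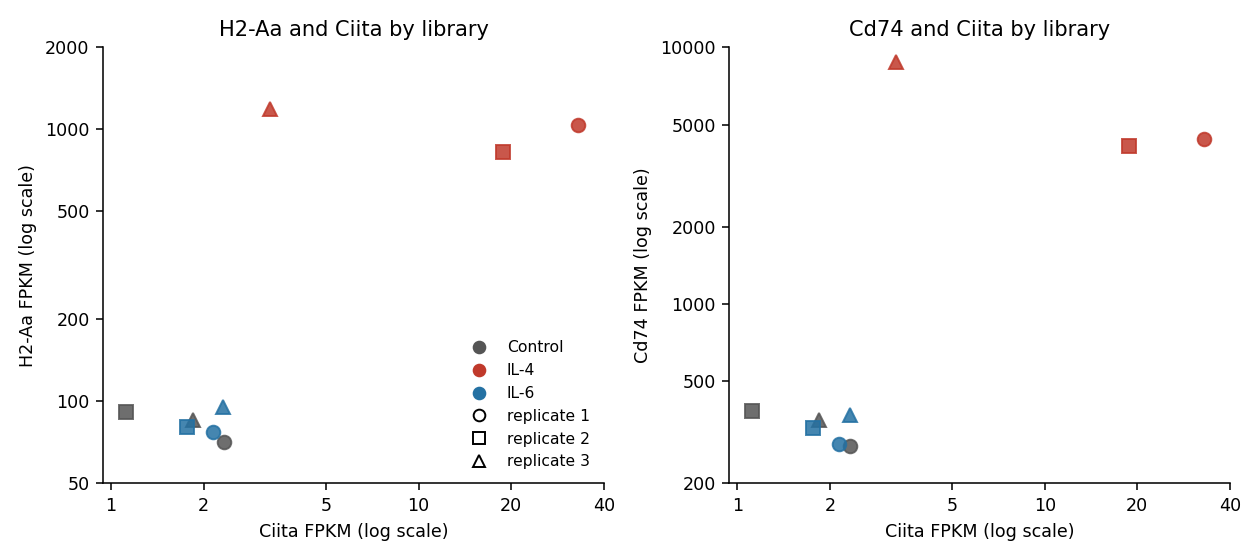
FPKM of H2-Aa (left) and Cd74 (right) against FPKM of Ciita in each library, all on log scales, colored by group with the replicate number as the symbol. IL-4 #1 and #2 combine high Ciita with high H2-Aa and Cd74, and IL-4 #3 combines 3.28 FPKM of Ciita with the highest H2-Aa and Cd74 of all libraries.

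Proportions between members within a library, which do not depend on how the library was scaled, lay apart from control with IL-4 for some pairs. They can still carry a trend on exon length, such as that of IL-4 #3, where the paired genes differ in length. H2-DMa amounted to 0.362 to 0.404 of H2-Aa by FPKM in control libraries, 0.173 to 0.189 with IL-4 and 0.298 to 0.368 with IL-6. H2-DMa to H2-DMb1, the partners in one heterodimer, went from 1.22 to 1.25 in control to 0.889 to 0.927 with IL-4. The inhibitor gene H2-Oa was 0.0351 to 0.0421 of H2-DMa in control, 0.00508 to 0.00889 with IL-4 and 0.0519 to 0.0723 with IL-6. In each of these pairs the IL-4 libraries were all below the control libraries. Cd74 was 3.97 to 4.18 times H2-Aa in control, 4.23 to 7.33 times with IL-4 and 3.69 to 4.10 times with IL-6. The 7.33 was that of IL-4 #3, with 4.23 and 5.01 in IL-4 #1 and #2. H2-DMb1 was 9.17 to 12.6 times H2-DMb2 in control, 33.8 to 50.01 times with IL-4 and 7.23 to 8.30 times with IL-6. These neighbors share sequence, so reads of either gene could have been counted for the other. H2-Eb1 to H2-Aa overlapped between control (1.09 to 1.23) and IL-4 (0.974 to 1.26), and so did Ciita to H2-Aa, from 0.0122 to 0.0329 in control and 0.00275 to 0.0316 with IL-4. The 0.00275 was that of IL-4 #3, with 0.0316 and 0.0229 in IL-4 #1 and #2. The part of exon length in these ratios was not tested. With 3 libraries against 3 the smallest two-sided exact permutation p is 0.1, and no adjusted p over the 24 ratio tests was below 0.2.

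**Figure D3:**
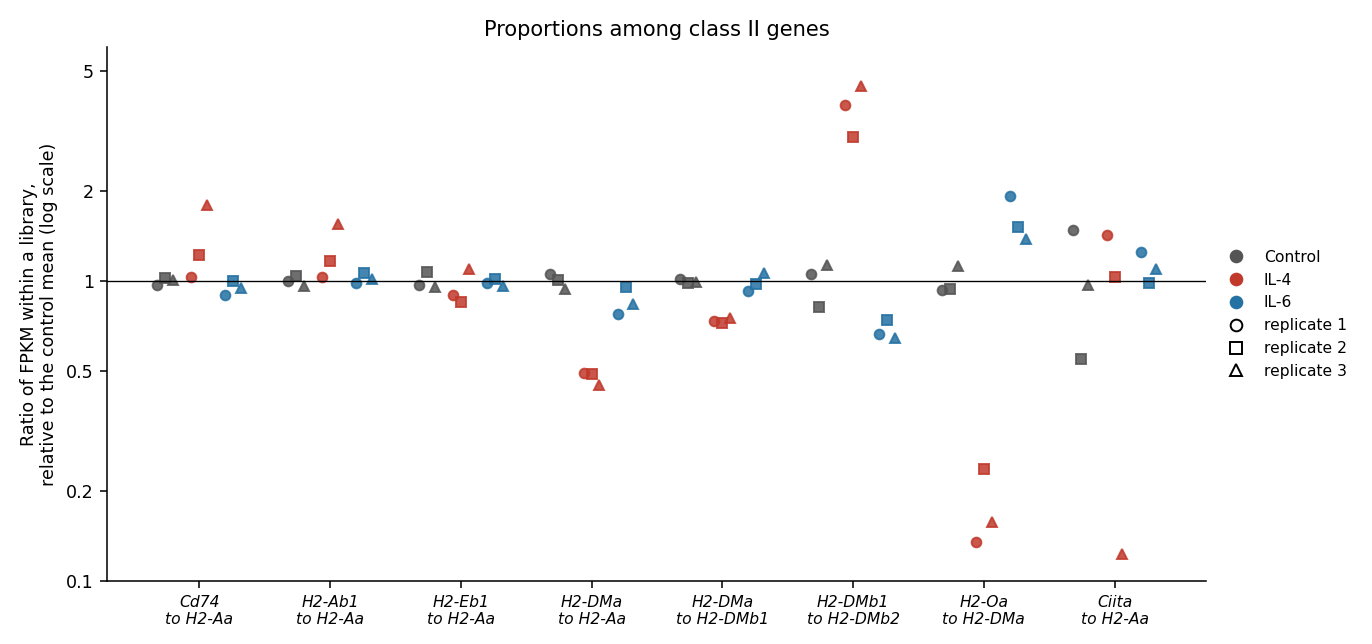
Ratio of FPKM between 2 class II genes within each library, divided by the mean ratio of the control libraries (log scale), for 8 pairs. IL-4 libraries lie below the control libraries for H2-DMa to H2-Aa, H2-DMa to H2-DMb1 and H2-Oa to H2-DMa. They lie above the control libraries for Cd74 to H2-Aa and H2-DMb1 to H2-DMb2.

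Counted together, 7 of the 8 members were called between IL-4 and control, all 7 higher with IL-4. Called here means that limma gave an adjusted p below 0.05 and that the change was 1 or more in size on the log2 scale. Of all tested genes 13.9% were called in this comparison, 5.02% higher and 8.89% lower. The median log2 fold change of the members was 3.26. Between IL-6 and control 0 of 8 passed by limma on log2 FPKM and 0 by limma voom on fragments, against 5.38% of all tested genes (3.49% higher and 1.89% lower), and 1 of 8, H2-Oa, had an unadjusted p under 0.05. The median of the members was 0.02. Between IL-6 and IL-4, where 20.4% of all tested genes passed and 6.82% were lower, the same 7 members passed and all were lower with IL-6, by log2 fold changes of −2.57 (Ciita) to −4.05 (Cd74). These 3 comparisons share libraries, so the third repeats the first with the IL-6 libraries in place of the control libraries. Control and IL-4 libraries did not overlap for 7 of 8 members, which is true of 40.3% of all tested genes, and control and IL-6 libraries for 1 of 8, against 43.2%. IL-6 and IL-4 libraries did not overlap for 8 of 8, against 56.9%. The order of mean levels was IL-4 above control and IL-6 for these 7 genes, and for each of them the control and IL-6 libraries overlapped.

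Within the sets of libraries IL-4 could be compared with control in one set. In the other, which holds no control library, it could be compared only with IL-6. IL-4 #1 had 12.6 times the control mean of H2-Aa, 13.0 times that of H2-Ab1, 11.3 times that of H2-Eb1, 13.0 times that of Cd74 and 18.7 times that of Ciita, all within one set. In the other set the mean of IL-4 #2 and #3 was 12.0, 16.3, 12.1 and 19.6 times the IL-6 mean for H2-Aa, H2-Ab1, H2-Eb1 and Cd74, and 5.34 times for Ciita. With the set as a term, IL-4 against control rests on IL-4 #1 alone and so repeats the comparison within the first set. The set effect in that model comes only from IL-4 #1 against IL-4 #2 and #3. Its IL-6 values against control therefore carry the spread among these libraries. For IL-6 against control that fit gave log2 fold changes from −0.49 (Cd74, limma adjusted p = 0.514) to 2.31 (Ciita, adjusted p = 0.275), and again no member passed. Ciita in IL-6- against IL-4-treated Mϕs then stood at −1.89 (adjusted p = 0.0565), no longer past the threshold. This comparison uses IL-4 #2 and #3 alone, so it is the same result as that without IL-4 #1.

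Within their stretch of chromosome 17, the genes called higher with IL-4 were all class II genes. Among them, H2-DMb2 shares sequence with H2-DMb1, and the part of shared reads in its call was not tested. From 100 kb before H2-Oa to 100 kb after H2-Eb1 24 genes were considered, 6 of them members, 4 other class II loci and 14 other protein-coding genes. With IL-4 5 of the 6 members were higher, 1 of the 2 tested other class II loci (H2-DMb2) was higher, and of the 11 tested other genes none was higher and 1 lower. Of all tested genes 5.02% were higher and 8.89% lower, so the counts of the 11 other genes are near these shares. That one was Col11a2, a collagen gene, with 1.71 ± 0.182 FPKM in control and 0.583 ± 0.0704 with IL-4 (log2 fold change −1.41, limma adjusted p = 0.000646). The class I pathway genes Psmb9, Tap1, Psmb8 and Tap2 lie between H2-DMb1 and H2-Ob. With IL-4 their log2 fold changes were 0.67, 0.60, 0.83 and 0.43, under the threshold on size (limma adjusted p = 0.0251, 0.0592, 0.0422 and 0.0612). H2-K1 was likewise under it at 0.67 (adjusted p = 0.0221). So were Ring1 at −0.57 (adjusted p = 0.0244) and Rxrb at −0.52 (adjusted p = 0.0114), both lower with IL-4. Brd2, between H2-Oa and H2-DMa, had −0.10 (adjusted p = 0.733). With IL-6 the 19 tested genes of the region had log2 fold changes from −0.45 (H2-Ob) to 0.66 (H2-K1), and none passed, against 5.38% of all tested genes.

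**Figure D4:**
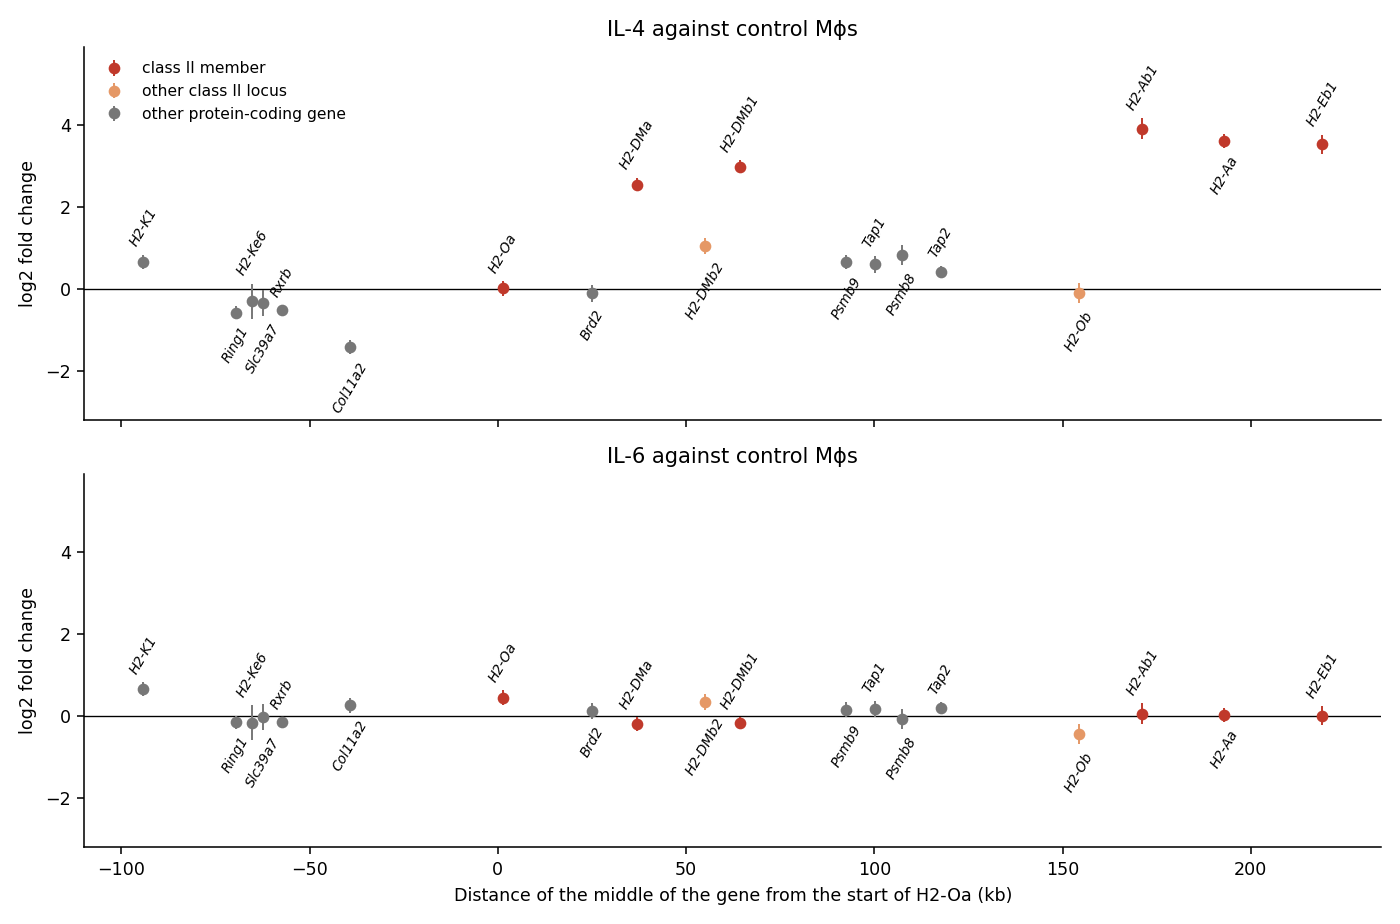
Log2 fold change (with standard error) against control of the 19 tested genes along the class II region, by distance in kb from the start of H2-Oa, with IL-4 above and IL-6 below. With IL-4, H2-DMa, H2-DMb1, H2-Ab1, H2-Aa and H2-Eb1 stand at 2.55 to 3.92, every other tested gene lies between −1.41 (Col11a2) and 1.05 (H2-DMb2), and with IL-6 all genes lie between −0.45 and 0.66.

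Of 35 further genes of the class II pathway, 33 could be tested, and 8 were higher and 3 lower with IL-4, where 5.02% and 8.89% of all tested genes were. With IL-6 0 were higher and 2 lower than control, near the 5.38% of all tested genes that were called there, and 8 of the 33 had an unadjusted p under 0.05 and limma voom called 3. Between IL-6 and IL-4 9 were called, 4 higher and 5 lower with IL-6, against 20.4% of all tested genes. The 7 factors that bind class II promoters with CIITA (Rfx5, Rfxap, Rfxank, Nfya, Nfyb, Nfyc and Creb1) gave no call in any comparison, and their log2 fold changes with IL-4 ran from −0.63 for Rfx5 to 0.19 for Nfyc. An unadjusted p under 0.05 was found for Rfxank between IL-4 and control, for Nfyb between IL-6 and control, and for Creb1, Nfyb, Nfyc, Rfx5 and Rfxank between IL-6 and IL-4. In that last comparison Rfx5 and Creb1 were each called in 1 of the 9 fits that left out a library. Their transcripts were present in all groups, as for Nfya with a mean of 16.9 FPKM over the 9 libraries.

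Among 12 regulators of Ciita, 4 were higher and 2 lower with IL-4, against 5.02% and 8.89% of all tested genes. With IL-6 0 were called by limma, against 5.38%. Ifngr1 was higher with IL-6 at 0.63 (limma adjusted p = 0.0122), under the threshold on size alone. Jak2 had an unadjusted p under 0.05 but did not pass after adjustment (limma adjusted p = 0.174). Socs1, a feedback inhibitor of JAK-STAT signaling, had 1.41, 1.20 and 1.45 FPKM in control, 31.2, 28.2 and 21.3 under IL-4, and 1.72, 1.53 and 1.31 under IL-6. Only the IL-4 libraries were high, with a log2 fold change of 4.20 (limma adjusted p = 3.36e-06). Irf4, a transcription factor of B cells and alternatively activated Mϕs, had 2.21, 1.59 and 1.83 FPKM in control, 19.8, 16.2 and 8.15 under IL-4, and 1.37, 1.74 and 1.44 under IL-6 (log2 fold change 2.83 with IL-4, limma adjusted p = 0.000426). Its lowest IL-4 library was IL-4 #3, as for Ciita. Irf1, through which interferon-γ acts on Ciita, went from 24.0 ± 2.83 FPKM (SD, n = 3) to 60.5 ± 25.4 with IL-4 (log2 fold change 1.26, limma adjusted p = 0.0132) and was not called without Control #3 or IL-4 #1. Prdm1, a repressor of Ciita in plasma cells, went from 7.17 ± 1.90 to 3.32 ± 1.45 FPKM (−1.16, limma adjusted p = 0.0382), a call kept in 1 of the 9 leave-one-out fits and lost with median-ratio rescaling (−0.97). The other 2 called regulators, named after their values were seen, were Irf8 and Jak2. Irf8, a factor of Mϕ and dendritic cell development, had −1.25 (limma adjusted p = 0.000837). With the library set in the model it had −0.96, from IL-4 #1 alone against control, under the threshold on size. The kinase gene Jak2 had 1.16 (limma adjusted p = 0.0313) and was likewise called in 1 of those 9 fits. The myeloid factor gene Spi1 was not called, at 0.16.

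Of the 6 genes of endosomal processing, 3 were higher with IL-4, against 5.02% of all tested genes. With IL-6 0 were called by limma, against 5.38%. Ctsb was lower with IL-6 at −0.51 (limma adjusted p = 0.0427), under the threshold on size alone. Ctsl had an unadjusted p under 0.05 but did not pass after adjustment (limma adjusted p = 0.0535). Ctss, the protease known for the last steps of invariant chain removal in myeloid cells, had 1958, 2317 and 2299.6 FPKM in control, 5317, 5367 and 5399.8 under IL-4, and 2426, 2774 and 2583 under IL-6. The IL-4 libraries lay close together and above the rest, with a log2 fold change of 1.29 (limma adjusted p = 0.000214), which was 0.96 with quantile normalization. Ctsl, which has that role in the thymic cortex, went from 147 ± 27.1 FPKM to 447 ± 82.0 with IL-4 (1.599, limma adjusted p = 0.000615). Ifi30 encodes the thiol reductase GILT, which opens disulfide bonds of antigens, and went from 223 ± 41.0 to 767 ± 318 FPKM (1.73, limma adjusted p = 0.00258). Its call was lost with the library set in the model (1.36), which sets IL-4 #1 alone against control. Ctsb, Lgmn and Sppl2a were not called with either cytokine.

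Of the 6 genes of class II turnover and surface partners, 1 was lower with IL-4, against 8.89% of all tested genes, and 2 were lower with IL-6, against 1.89%. No difference between the gene groups was tested. Cd83, whose product protects class II molecules from ubiquitination, had 49.9 ± 3.40 FPKM in control (SD, n = 3), 27.9 ± 1.44 under IL-4 and 19.3 ± 1.07 under IL-6. Cd83 differed from control by −1.37 on the log2 scale with IL-6 (limma adjusted p = 0.000215), and by −0.84 with IL-4, under the threshold on size. Cd9, a tetraspanin that associates with class II molecules, had 117, 141 and 148 FPKM in control, 267, 274 and 184 under IL-4, and 44.7, 54.4 and 53.3 under IL-6. The IL-6 libraries were the lowest and the IL-4 libraries the highest, with log2 values of −1.41 between IL-6 and control (limma adjusted p = 0.003) and −2.23 between IL-6 and IL-4 (adjusted p = 5.83e-05). Between IL-4 and control it was 0.82, under the threshold on size, and 1.01 after median-ratio rescaling (adjusted p = 0.00155), where it passed. In the model with the library set the IL-6 difference was −1.16 for Cd9 (adjusted p = 0.152) and −1.24 for Cd83 (adjusted p = 0.0297). Both values carry the difference between IL-4 #1 and the other IL-4 libraries. March1, the ubiquitin ligase that removes class II molecules from the surface, had 13.8, 7.61 and 9.15 FPKM in control, 11.0, 8.34 and 3.27 under IL-4, and 36.5, 28.9 and 28.2 under IL-6. All IL-6 libraries were above the other 6, yet 1.64 against control did not pass (limma adjusted p = 0.0512), while 2.19 against IL-4 did (adjusted p = 0.0052). In 2 of the 9 leave-one-out fits the difference from control passed, among them the one without IL-4 #3 (1.64, limma adjusted p = 0.00179). It also passed with median-ratio rescaling (adjusted p = 0.0242). In the model with the library set it was 2.70 (adjusted p = 0.109), a value that likewise carries the difference between IL-4 #1 and the other IL-4 libraries. Cd82, another tetraspanin, fell with IL-4 from 30.6 ± 2.14 to 13.2 ± 1.66 FPKM (−1.22, limma adjusted p = 0.000234).

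**Figure D5:**
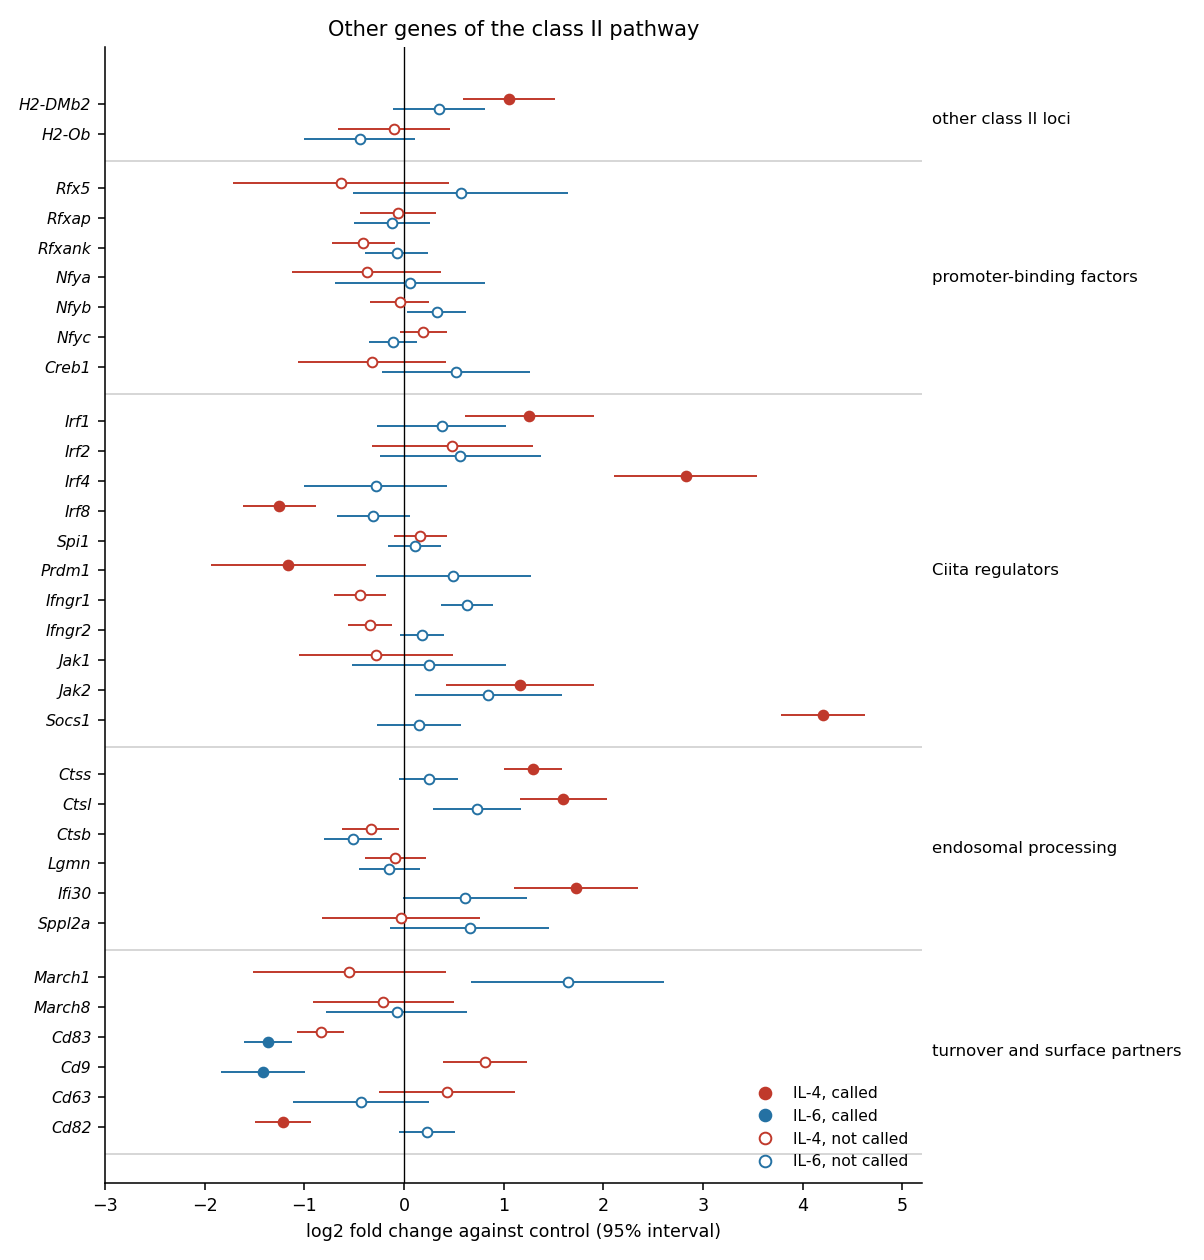
Log2 fold change against control with 95% intervals for tested class II pathway genes, in 5 groups, IL-4 in red and IL-6 in blue, filled where called. IL-4 calls run from −1.25 (Irf8) to 4.20 (Socs1), and the IL-6 calls are Cd83 and Cd9, both lower.

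Since other antigen-presenting cells carry much class II RNA, marker lists were read beside the members. The 7 macrophage markers were above 0 in every library, with summed FPKM of 2810 to 2822 in control, 1366 to 1636 with IL-4 and 2219 to 2312 with IL-6, and 3 of the 7 (Adgre1, Csf1r and Fcgr1) were lower with IL-4. The 8 B cell markers were above 0 in every library too, with sums of 28.5 to 51.1 in control, 23.7 to 31.6 with IL-4 and 20.3 to 33.6 with IL-6, and the 5 tested ones had log2 fold changes with IL-4 from −0.78 (Cd79a, limma adjusted p = 0.139) to −0.05 (Pax5, adjusted p = 0.922). No IL-4 library exceeded the control range of the B cell sum. The 9 dendritic cell markers summed to 71.2 to 80.3, 378 to 467 and 20.4 to 26.03 FPKM, with 8 or 9 of them above 0. Of the 5 tested, Itgax and Batf3 were higher with IL-4, at 334 ± 92.1 against 20.5 ± 2.93 FPKM and at 51.4 ± 29.0 against 5.14 ± 0.741. Itgax (CD11c) and Clec10a were lower with IL-6. Flt3, Xcr1, Clec9a and Zbtb46 were at 0.318, 0.0498, 0.618 and 0.385 FPKM with IL-4 and at 0.535, 0.0217, 0.800 and 0.0793 in control. Cd209a, Ccr7 and Clec10a were at 0.0501, 1.07 and 40.9 FPKM with IL-4 and at 0.655, 1.06 and 46.5 in control. Zbtb46 and Cd209a were below the filter. In the fit without it their log2 fold changes with IL-4 were 1.42 (limma adjusted p = 0.00554) and −2.37 (adjusted p = 0.00828). Neutrophil markers summed to 4566 to 8170 FPKM in control and 2060.4 to 3903 with IL-4, where 6 of 7 were lower, while 0 of 7 were called with IL-6. The 5 T cell markers summed to 0.731 to 0.903 FPKM in control, 2.13 to 3.67 with IL-4 and 0.869 to 1.17 with IL-6, and Lck, the one tested, was higher with IL-4 (1.21, limma adjusted p = 0.00677). The part of these cell types in the class II values was not tested.

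Among the tested genes outside these lists whose pattern over the 9 libraries was most like that of the mean of H2-Aa, H2-Ab1, H2-Eb1 and Cd74 were Btbd17, Dok2, Gm4610 and Gpx7, with Pearson's r of 0.995 to 0.996. Dok2, an adaptor protein of tyrosine kinase signaling, went from a mean of 15.3 FPKM in control to 94.7 with IL-4 and 14.2 with IL-6. Gm4610, a predicted gene, had 0.384, 50.3 and 0.247 FPKM in the same order. Among the closest to Ciita were Clic4, Zfp101, Lipg and Spata25, with r of 0.987 to 0.993, and none of them was among those closest to the chains. Clic4, an intracellular chloride channel protein, went from 38.9 FPKM to 112 under IL-4 and was at 38.6 under IL-6. These r describe 9 libraries that share treatments and depth, and the genes were chosen for them.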

How the data were processed

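The 9 libraries (3 a group) were re-analysed from FPKM that the authors deposited. Per the labels and the study's methods, reads were aligned to GRCm38 by STAR 2.4.2a, and FPKM came from Cufflinks 2.2.1 on GENCODE M5. Of the low values, 100.0% were whole fragments within 0.05 of M21 exon lengths, as a read counter gives, so the program behind the table is not settled. Fragments and library totals were read back from these steps, and lengths of the members, whose identifiers differ in version from M21, were solved from them. Counting error alone is covered by these totals. Of the gene identifiers 99.8% matched M21 without version.

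FPKM were transformed as log2(FPKM + 0.1), which understates the change of low genes. Fits by limma 3.58.1 (R 4.3.3) used 12824 genes whose mean FPKM was 0.5 or more, all 3 groups in one model by eBayes (trend and robust settings on), and p-values were adjusted after Benjamini and Hochberg. Calls needed an adjusted p below 0.05 together with a change of 1 or more in size on the log2 scale. Except where an alternative is named, adjusted p-values are from this two-sided limma test, and intervals are at the 95% level. Single values were also compared by exact permutation of 3 libraries against 3, whose smallest p is 0.1. Errors are SD over 3 libraries. Genes below the filter were taken from the fit without it. The fit was tested on simulated data. Python 3.11.15, numpy 2.4.6, pandas 2.3.3, scipy 1.17.1 and matplotlib 3.10.9 made tables and plots.

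The members and the gene lists were chosen with earlier results of these data known. Pathway genes named are those called in at least 1 comparison without overlap of the groups, the 4 largest changes in each group of the list, and all other class II loci. Neighbors on chromosome 17 were named where called, with the class I genes and Brd2 added for their position. H2-K1, Ring1 and Rxrb were added for an adjusted p below 0.05 with IL-4. Genes to be named as most like the class II chains, and as most like Ciita, were taken from the first 5 of each. Some genes that these rules reach are not reported here.

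No 2 libraries of a group agreed within sampling noise (mean chi-square per gene of 6.98 or more). Library preparation and sequencing days are not given in the sources used here. Alternatives were another pseudocount, filter or scaling, fits to fewer libraries, the replicate number as a block, the set of libraries as a term, limma voom on recovered fragments and, chosen after seeing the data, removal of the trend on gene length.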

Additional observations from a re-analysis of the deposited data

How the results depend on the processing

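The members called numbered 6 or 7 between IL-4 and control, 0 between IL-6 and control and 6 or 7 between IL-6 and IL-4 under every alternative run, and the one lost was Ciita. Besides the losses against control given with its values, the Ciita difference between IL-6 and IL-4 failed without a filter (−2.57, limma adjusted p = 0.055), with only the groups compared (adjusted p = 0.0682), and without IL-4 #1 (−1.89, 0.0566), IL-4 #2 (−2.29, 0.0779), IL-6 #1 (−2.60, 0.0761), IL-6 #2 (−2.46, 0.0842) or IL-6 #3 (−2.65, 0.0698). With fewer libraries a fit has fewer degrees of freedom, and beyond that the cause was not tested. No called value of a member changed sign. Differences that were not called did when a library was left out, between IL-6 and control for H2-Aa (−0.08 to 0.11), H2-Ab1 (−0.05 to 0.17), H2-Eb1 (−0.11 to 0.14), Cd74 (−0.17 to 0.06) and Ciita (−0.01 to 0.49), and between IL-4 and control for H2-Oa (−0.09 to 0.13).

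With an adjusted p under 0.05 alone, 3186, 1077 and 4375 of all genes passed (IL-4 against control, IL-6 against control, IL-6 against IL-4), and 4 and 15 pathway genes in the latter comparisons. A mean FPKM of at least 5 left 847, 306 and 1219, with fewer genes tested. The set as a term gave 1111 and 187 for IL-4 and IL-6 against control, and 7, 1 and 14 pathway genes. Leaving out a library gave 387 to 1001 genes for IL-6 against control (lowest without Control #3, highest without IL-4 #3; 445 without Control #2, 424 without IL-6 #2, 408 without IL-6 #3), 1450 to 2150 for IL-4 against control and 2124 to 3274 for IL-6 against IL-4. For pathway genes it gave 7 to 11 for IL-4 against control (lowest without Control #3), 2 or 3 for IL-6 against control and 8 to 14 for IL-6 against IL-4 (highest without IL-4 #1). Under median-ratio rescaling the IL-4 calls were 834 higher and 874 lower, in place of 644 and 1140, and those between IL-6 and IL-4 1398 and 1165, in place of 1738 and 875. No source says that equal replicate numbers mark 1 mouse. Deviations of equally numbered libraries from their group means had r of 0.521, −0.415 and 0.0777 for IL-4 with control, 0.408, 0.201 and 0.166 for IL-6 with control, and 0.281, −0.0612 and 0.153 for IL-6 with IL-4, and 3, 5 and 3 of 6 libraries correlated best with their own number. With the number as a replicate block, 1788, 656 and 2734 genes passed, and 11, 3 and 9 pathway genes. The block changed no call of a member, and Ciita with IL-4 had an adjusted p of 0.0307.

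Depth limited H2-Oa and H2-Eb2, with at most 76 and 33 fragments a library. Doses, times and the program behind the FPKM are not stated alike in all sources. Class II protein on the cells was not measured here.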
